A study of Mus musculus with 16 samples.

Results

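Oxidative phosphorylation genes, the genes that encode the subunits of the respiratory chain and of ATP synthase, were followed in mouse hearts after endotoxin. The 82 genes described here were those whose probe sets carried a single gene symbol of the Nduf (A, B, C, S or V), Sdh (A to D), Uqcr, Cyc1, Cox4 to Cox8 or Atp5 series, among 18193 genes measured. Where a gene had several probe sets, the brightest on average across all 16 arrays stood for it. By complex they were 33 genes of complex I, 4 of complex II, 9 of complex III, 17 of complex IV and 17 of complex V. Cox7a2l, a supercomplex assembly factor, and Ndufa4l2, a paralog of Ndufa4, match the symbols but encode no canonical subunit, and these 2 genes were counted apart. Ndufa4 was counted with complex IV.

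RNA came from the ventricular myocardium of male mice aged 14 weeks on a CD1 background. A2AR knockout (KO) mice, which lack the adenosine 2A receptor, were compared with wild-type (WT) littermates from a sub-colony of the original knockout line, all of the same breeding series. The 4 groups of 4 arrays were KO mice given LPS, KO mice given saline, WT mice given LPS and WT mice given saline. LPS is lipopolysaccharide, the endotoxin of E. coli, given here once at 20 mg/kg into the peritoneum with hearts taken at 24 h, and saline mice received an equal volume of vehicle. The transcript of the deleted receptor was not analysed here, so the genotype of each array rests on its label.

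The respiratory chain sits in the inner mitochondrial membrane. Complex I takes electrons from NADH and complex II from succinate, both pass them through coenzyme Q to complex III, and cytochrome c carries them on to complex IV, which reduces oxygen. Complexes I, III and IV pump protons, and complex V, the ATP synthase, uses the resulting gradient to make ATP. The heart depends on this pathway for nearly all of its ATP, and its nuclear genes are known targets of the PGC-1 coactivators with the ERR, NRF1, GABPA and YY1 transcription factors.

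Values are log2 intensities, and a level compares arrays for the same probe set; levels of different probe sets were used only to sort genes by brightness. The median over all probe sets was 4.64, and the probe sets used for 3 members lay below it (Ndufb4, Cox4i2 and Cox7b2), whereas 71 of the 82 had a mean above 11. Cardiomyocyte markers were high throughout, and the mean over 10 of them was 13.37 to 13.86 on every array. Skeletal muscle markers set WT saline arrays 1 and 4 apart, with list means of 7.38 and 8.92 over 12 genes, against 5.26 to 5.59 on the other arrays. WT LPS array 4 lay between the saline arrays and the other LPS arrays on the first principal component (66.3% of variance), and KO LPS array 2 stood apart on the second (8.60%). The counts of members and of their partner genes are given with and without these arrays. A gene was called when its limma test across all genes had an adjusted p (Benjamini-Hochberg) under 0.05, and a call is said to have held when it passed again with any 1 of the 16 arrays left out.

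Promoter sequences are shown for 1 gene of each complex. It was the member of largest mean fall among those called lower in at least 1 genotype with a motif match in the window shown. A match in every sequence shown was thus fixed by the choice. RefSeq windows of 300 bases around the annotated start (GRCm38.p6) were found for 66 of the 82 members, 71 windows in all. The core motif of ETS factors such as GABPA (CCGGAAG, either strand) was present in 23.9% of these windows, against 8.86% of all 32851 windows and 11.6% of the windows of protein-coding genes. A YY1 motif (AANATGGC, where N is any base) was in 21.1% of the members' windows and in 6.05% of all windows. The palindromic consensus motif of NRF1 was in 5.63% and 0.971%, and an ERR motif (TNAAGGTCA) in 4.23% and 1.28%. Called lower in both genotypes were 6 of the 17 members with an ETS match and 6 of the 15 with a YY1 match. The counts were 1 of 4 for NRF1 and 0 of 3 for ERR, against 30 of all 82 members. A match is a run of letters and not a measured binding site. The windows below run from 200 bases before the start to 20 bases after it, 5′ to 3′ on the gene's strand, with the match in capitals: a YY1 match for Ndufb10 and an ETS match for the other genes.
Ndufb10, chr17:24724404-24724623 (- strand): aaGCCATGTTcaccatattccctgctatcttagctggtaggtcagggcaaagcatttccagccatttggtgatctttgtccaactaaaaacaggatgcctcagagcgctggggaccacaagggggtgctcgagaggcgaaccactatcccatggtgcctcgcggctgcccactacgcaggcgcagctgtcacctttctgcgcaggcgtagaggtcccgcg
Sdhb, chr4:140961071-140961290 (+ strand): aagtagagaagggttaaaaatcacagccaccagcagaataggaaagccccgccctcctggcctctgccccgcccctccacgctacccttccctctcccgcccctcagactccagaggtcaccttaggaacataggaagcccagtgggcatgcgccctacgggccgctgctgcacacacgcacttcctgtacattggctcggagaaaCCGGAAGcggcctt
Uqcr11, chr10:80406802-80407021 (- strand): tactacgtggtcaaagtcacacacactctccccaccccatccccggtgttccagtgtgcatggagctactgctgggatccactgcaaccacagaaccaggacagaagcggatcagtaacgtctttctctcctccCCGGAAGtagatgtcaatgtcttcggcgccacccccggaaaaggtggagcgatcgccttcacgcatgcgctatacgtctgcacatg
Cox8a, chr19:7217597-7217816 (- strand): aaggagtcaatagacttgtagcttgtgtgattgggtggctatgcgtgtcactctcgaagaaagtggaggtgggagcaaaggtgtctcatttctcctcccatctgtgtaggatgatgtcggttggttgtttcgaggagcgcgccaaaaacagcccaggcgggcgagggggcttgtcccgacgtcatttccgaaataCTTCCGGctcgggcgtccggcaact
Atp5e, chr2:174464082-174464301 (- strand): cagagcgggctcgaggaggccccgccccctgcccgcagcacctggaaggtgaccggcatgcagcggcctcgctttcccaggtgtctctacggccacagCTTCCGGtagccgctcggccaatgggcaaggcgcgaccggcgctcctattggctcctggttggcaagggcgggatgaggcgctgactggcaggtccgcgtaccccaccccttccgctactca

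LPS lowered the transcripts of the pathway broadly and by small amounts in both genotypes. In KO hearts 50 of the 82 members fell and 0 rose, where 14.7% of all genes tested were called lower and 11.4% higher. In WT hearts 41 fell and 0 rose, against 11.6% and 9.28% of all genes. The sign was negative for 81 of 82 members in each genotype, and the exceptions were Cox6a1 in KO hearts (0.04 ± 0.08, SE) and Ndufb1 in WT hearts (0.02 ± 0.15), neither of them called. The median log2 change of the members was -0.27 in KO and -0.22 in WT hearts, so that the median member fell by 16.9% and by 14.4%, whereas the median over all genes was -0.02 and -0.00. The LPS and saline arrays did not overlap, with LPS lower, for 47 members in KO hearts and 49 in WT hearts, against 16.1% and 11.9% of all genes, and for 37 members in both, against 8.38%.

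**Figure D1:**
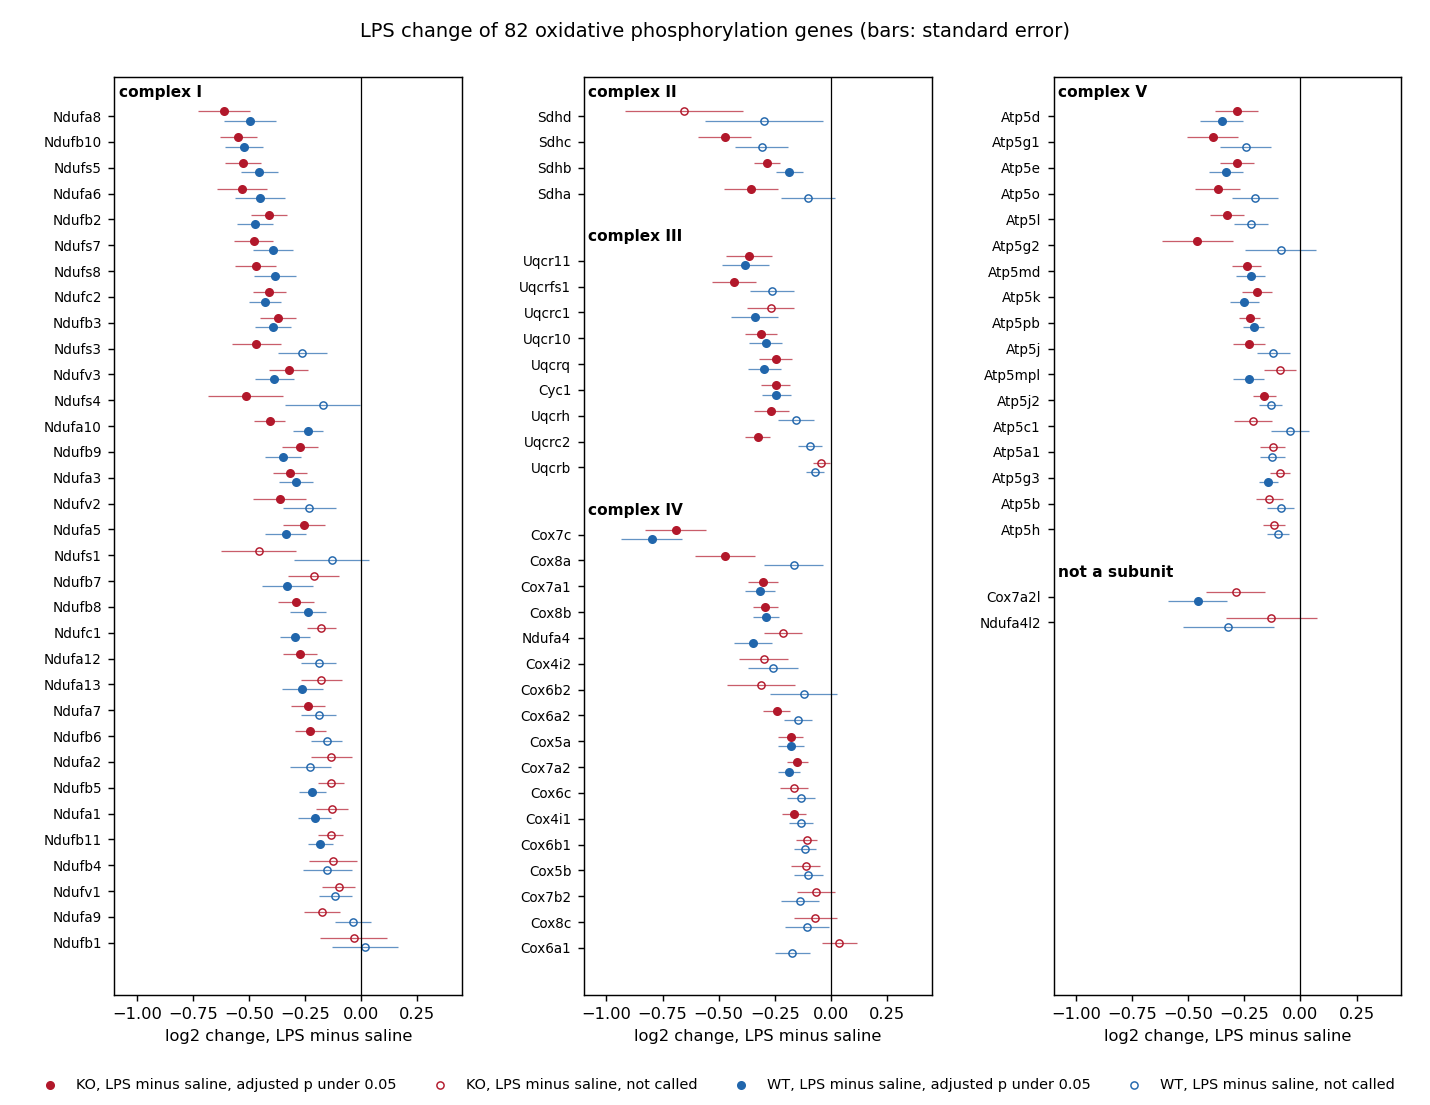
Log2 change after LPS (LPS minus saline, horizontal axis) of each of the 82 genes, by complex, in KO hearts (red) and WT hearts (blue), with limma standard errors as bars and filled points for adjusted p under 0.05. Nearly every point lies left of 0, between -0.80 and 0.04.

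Of the members, 30 were called lower in both genotypes, against 9.2% of all genes. A further 20 were called in KO hearts alone, 11 in WT hearts alone and 21 in neither, and these splits do not show a difference between genotypes. The fall held for 32 members in KO hearts, 25 in WT hearts and 18 in both, where 1819, 1432 and 1117 of the 18193 genes met the same rule. Those 18 were Ndufa3, Ndufa6, Ndufa8, Ndufb2, Ndufb3, Ndufb10, Ndufc2, Ndufs5, Ndufs7, Ndufs8, Ndufv3, Cyc1, Uqcr10, Cox7a1, Cox7c, Cox8b, Atp5e and Atp5pb. Without KO LPS array 2 and WT LPS array 4 together, 54 members fell in KO and 62 in WT hearts, where 2919 and 3357 of the 18193 genes were lower (18.5% in WT hearts). Without WT saline arrays 1 and 4 the counts were 40 and 13, against 12.9% and 6.11% of all genes, with a WT median of -0.21, and with WT LPS array 3 left out the WT count was 27.

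Averaged over all 82 members, the KO LPS arrays stood at 11.78, 11.69, 11.77 and 11.92 and the KO saline arrays at 12.05, 12.07, 12.07 and 12.09. The WT LPS arrays stood at 11.85, 11.76, 11.80 and 11.96, and the WT saline arrays at 12.10, 12.09, 12.04 and 12.10. Every LPS array lay below every saline array of its genotype. Array 4 was the highest of its group for 56 members among the KO LPS arrays and for 61 among the WT LPS arrays, while KO LPS array 2 was the lowest for 42 members and the highest for 20. The means of complexes I, III, IV and V also did not overlap between LPS and saline in either genotype, but those of complex II did.

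**Figure D2:**
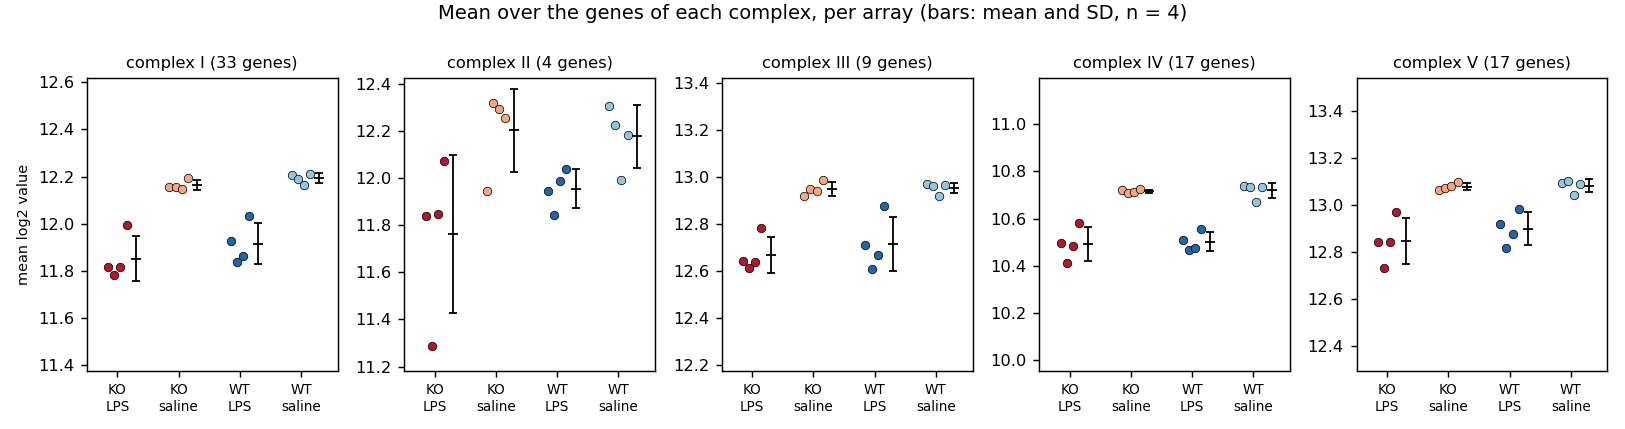
Mean log2 value over the genes of each complex on each array (points), by group, with the mean and SD of 4 arrays as bars, on vertical axes of equal span. LPS arrays lie below saline arrays in complexes I, III, IV and V, and the complex II mean of KO LPS array 2 (11.29) lies below those of the other arrays.

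Marker lists of several cell types moved with the members, and that of cardiomyocytes was one of them. Its mean was 13.37 to 13.64 on the KO LPS arrays, against 13.82 to 13.86 on the KO saline arrays, and 13.48 to 13.71 on the WT LPS arrays, against 13.81 to 13.82 on the WT saline arrays. In each genotype 5 of the 10 markers were called lower and 0 higher. Actc1, cardiac actin, fell by 0.81 ± 0.09 in KO and by 0.66 ± 0.09 in WT hearts, while Tnnt2, cardiac troponin T, changed by -0.04 ± 0.04 and -0.01 ± 0.04 and was not called. All 5 neutrophil markers measured rose in both genotypes, with list means of 7.05 to 7.61 on KO LPS arrays against 3.91 to 4.09 on KO saline arrays, and of 6.12 to 7.14 on WT LPS arrays against 3.89 to 4.05 on WT saline arrays. Of 9 smooth muscle and pericyte markers, 7 were called lower in each genotype (median changes -1.11 and -0.99), and of 5 atrial markers, 4 (-0.94 and -0.87). Of 7 endothelial markers, 4 were called lower in KO and 2 in WT hearts (-0.71 and -0.68), and of 7 fibroblast markers, 2 in each (-0.32 and -0.60). Of 4 adipocyte markers, 2 were called lower in KO and 3 in WT hearts (-0.38 and -1.06). The part of these shifts in the members' changes was not tested, and in whole tissue fewer cells of a type and less RNA per cell cannot be told apart.

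Complex I, the NADH dehydrogenase, had 21 of 33 genes called lower in KO and 21 in WT hearts, 15 of them in both, with median changes of -0.29 and -0.26. Ndufa8, an accessory subunit of the intermembrane space face, had the largest fall of this complex in KO hearts. Its KO LPS arrays read 11.71, 11.27, 11.75 and 11.997 and its KO saline arrays 12.20, 12.37, 12.36 and 12.24, and its WT LPS arrays read 11.94, 11.69, 11.78 and 11.99, against 12.44, 12.35, 12.26 and 12.34 with saline. All LPS values lay below all saline values, and Ndufa8 fell by 0.61 ± 0.12 in KO (adjusted p = 0.000911) and by 0.50 ± 0.12 in WT hearts (0.00537). Ndufb10, an accessory subunit of the membrane arm, read 12.12, 12.27, 12.22 and 12.35 on KO LPS arrays, against 12.86, 12.76, 12.67 and 12.87 on KO saline arrays. On WT LPS arrays it read 12.37, 12.16, 12.19 and 12.56, against 12.91, 12.81, 12.81 and 12.82 on WT saline arrays. The groups were again apart, and Ndufb10 had the smallest adjusted p of all members in both genotypes (-0.55 ± 0.08, 0.000128, and -0.52 ± 0.08, 0.000252). Ndufs5, another accessory subunit, fell by 0.53 ± 0.08 and 0.45 ± 0.08, and Ndufa6 by 0.53 ± 0.11 and 0.45 ± 0.11.

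The conserved core of complex I, which holds the flavin and the iron-sulfur clusters, did not move evenly. Ndufs7 and Ndufs8, which bind clusters near the coenzyme Q site, fell in both genotypes and both calls held (Ndufs7 by 0.48 ± 0.09 and 0.39 ± 0.09, Ndufs8 by 0.47 ± 0.09 and 0.39 ± 0.09). For Ndufs7 the KO LPS values were 12.36, 12.34, 12.48 and 12.68, against 13.01, 12.90, 12.86 and 13 with saline, and the WT LPS values were 12.61, 12.63, 12.40 and 12.84, against 12.96, 12.99, 13.03 and 13.07. Ndufs3 fell by 0.47 ± 0.11 in KO hearts and changed by -0.26 ± 0.11 in WT hearts (adjusted p = 0.108). Ndufv1, which binds NADH and the flavin, was not called in either genotype (-0.10 ± 0.07 and -0.11 ± 0.07). Its partner Ndufv2 fell by 0.36 ± 0.12 in KO hearts, a call lost without KO LPS array 1 or 2 or KO saline array 2, 3 or 4 (adjusted p up to 0.1, and a change of -0.23 without KO LPS array 2), and changed by -0.23 ± 0.12 in WT hearts. The other Ndufv2 probe sets, with means of 12.35 and 11.89, were called lower in both genotypes. In WT hearts they fell by 0.26 and 0.25 (adjusted p = 0.0172 and 0.024, limma over all probe sets). Ndufs1, the largest iron-sulfur subunit, read 11.71, 11.02, 11.87 and 12.07 on KO LPS arrays, against 11.79, 12.26, 12.26 and 12.20 on KO saline arrays, so that the groups overlapped and the change of -0.46 ± 0.17 did not pass (adjusted p = 0.0548), with a change of -0.24 without KO LPS array 2.

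Complex II, succinate dehydrogenase, has 4 nuclear subunits, of which 3 fell in KO hearts and 1 in WT hearts. Sdhb, the iron-sulfur subunit, was the gene called in both. It read 13.02, 12.96, 13.06 and 13.23 on KO LPS arrays, against 13.34, 13.38, 13.31 and 13.38 on KO saline arrays, and 13.18, 13.11, 13.12 and 13.21 on WT LPS arrays, against 13.40, 13.37, 13.28 and 13.31 on WT saline arrays. The groups were apart, with changes of -0.29 ± 0.06 and -0.19 ± 0.06 (adjusted p = 0.00177 and 0.0343). The WT call was lost without WT LPS array 1, 2 or 3 or WT saline array 1, 2 or 4 (adjusted p up to 0.102). Sdhc, a membrane anchor, fell by 0.47 ± 0.12 in KO hearts and changed by -0.31 ± 0.12 in WT hearts. Sdha, the flavoprotein, fell by 0.35 ± 0.12 in KO hearts and changed by -0.10 ± 0.12 in WT hearts. The KO call of Sdha was lost without KO LPS array 1, 2 or 3 or KO saline array 2, 3 or 4 (adjusted p up to 0.102), with a change of -0.21 without KO LPS array 2. Sdhd, the other anchor, spread widely on KO LPS arrays (10.83, 9.64, 10.92 and 11.16, against 10.72, 11.59, 11.55 and 11.31 with saline) and was not called in either genotype (-0.66 ± 0.26 and -0.30 ± 0.26, and -0.32 in KO hearts without KO LPS array 2). A dimmer Sdhd probe set, with a mean of 8.34, fell by 0.33 ± 0.10 in KO hearts (adjusted p = 0.0239, limma over all probe sets). In WT hearts that probe set changed by -0.27 ± 0.10 (0.0704).

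Complex III, the cytochrome bc1 complex, had 7 of 9 genes called lower in KO and 5 in WT hearts, 4 of them in both (median changes -0.27 and -0.26). Cyc1, cytochrome c1, read 12.94, 12.87, 12.87 and 13.02 on KO LPS arrays, against 13.15, 13.18, 13.16 and 13.18 on KO saline arrays. On WT LPS arrays it read 12.96, 12.81, 12.84 and 13.12, against 13.18, 13.17, 13.14 and 13.21 on WT saline arrays. The arrays did not overlap, and Cyc1 fell by 0.25 ± 0.06 and 0.24 ± 0.06. Uqcrfs1, the Rieske iron-sulfur protein, fell by 0.43 ± 0.10 in KO hearts and changed by -0.26 ± 0.10 in WT hearts (adjusted p = 0.0696). The core proteins Uqcrc1 and Uqcrc2 differed in which genotype passed. Uqcrc2 fell by 0.33 ± 0.06 in KO hearts (adjusted p = 0.000335) and changed by -0.09 ± 0.06 in WT hearts, and Uqcrc1 changed by -0.27 ± 0.11 in KO hearts and fell by 0.34 ± 0.11 in WT hearts. The WT call of Uqcrc1 was lost without WT LPS array 1, 2 or 3 or WT saline array 1, 2 or 4 (adjusted p up to 0.111). Uqcr11, a small subunit, fell by 0.37 ± 0.10 and 0.38 ± 0.10, with adjusted p of 0.0565 in KO hearts without KO LPS array 1 and 0.0542 in WT hearts without WT LPS array 2. Uqcrb was not called in either genotype on its brightest probe set (-0.04 ± 0.04 and -0.07 ± 0.04), while another probe set of the gene, with a mean of 11.97, fell by 0.32 ± 0.11 in KO hearts (adjusted p = 0.042, limma over all probe sets) and changed by -0.22 ± 0.11 in WT hearts.

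Complex IV, cytochrome c oxidase, had the smallest median changes, -0.18 in KO and -0.17 in WT hearts. Of its 17 nuclear genes, 8 and 6 were called lower. The 17 include Cox4i2 and the testis forms Cox6b2, Cox7b2 and Cox8c, with mean levels of 4.54, 4.88, 3.17 and 6.59, none of them called. Cox7c had the largest fall of any member (-0.69 ± 0.13 and -0.80 ± 0.13), but its probe set was dim, at 5.43, 4.999, 4.92 and 5.40 on KO LPS arrays, against 5.83, 5.97, 5.805 and 5.91 on KO saline arrays. Its WT LPS arrays read 5.19, 5.25, 5.06 and 4.699, against 5.71, 5.91, 5.90 and 5.88 with saline, and the arrays did not overlap. Cox8a, the ubiquitous form of subunit 8, fell by 0.47 ± 0.13 in KO hearts and changed by -0.17 ± 0.13 in WT hearts. Cox4i1 and Cox5a, nuclear subunits that surround the catalytic core, changed little: Cox4i1 by -0.16 ± 0.06 and -0.13 ± 0.06, called in KO hearts, and Cox5a by -0.18 ± 0.06 in each genotype, called in both. Each of these calls was lost when some single array was left out: Cox4i1 without KO LPS array 1 or 3 or any KO saline array (adjusted p up to 0.104), and Cox5a in KO hearts without KO LPS array 1 or 2 or KO saline array 2, 3 or 4 (up to 0.0715) and in WT hearts without WT LPS array 1, 2 or 3 or WT saline array 1, 2 or 4 (up to 0.099). Cox5b was not called in either genotype on its brightest probe set (-0.11 ± 0.06 and -0.10 ± 0.06). Its probe sets with means of 13.06 and 12.75 fell by 0.28 and 0.27 in KO hearts (adjusted p = 0.0258 and 0.0488, limma over all probe sets). The probe set with a mean of 13.755 was not called there (-0.10), and none of these was called in WT hearts. The other Cox5a probe sets, with means of 13.12 and 12.60, were not called in either genotype. Ndufa4, first assigned to complex I and now known as a complex IV subunit, fell by 0.35 ± 0.08 in WT hearts and changed by -0.22 ± 0.08 in KO hearts (adjusted p = 0.0729).

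Among the muscle isoforms of complex IV, Cox8b and Cox7a1 fell in both genotypes. Cox8b, which most mammals use in heart and muscle, read 12.97, 12.99, 13.02 and 13.10 on KO LPS arrays, against 13.35, 13.26, 13.28 and 13.36 on KO saline arrays. On WT LPS arrays it read 13.14, 12.97, 13.06 and 13.01, against 13.34, 13.43, 13.29 and 13.29 on WT saline arrays. The groups were apart, and Cox8b fell by 0.29 ± 0.06 in each genotype (adjusted p = 0.00109 in KO and 0.00144 in WT hearts). Cox7a1, the heart and muscle form of subunit 7a, fell by 0.30 ± 0.07 and 0.32 ± 0.07, and its ubiquitous paralog Cox7a2 by 0.15 ± 0.05 and 0.19 ± 0.05. The KO call of Cox7a2 was lost without KO LPS array 3 or KO saline array 1 or 4 (adjusted p up to 0.0756). Cox6a2, the muscle form of subunit 6a, fell by 0.24 ± 0.06 in KO hearts and changed by -0.15 ± 0.06 in WT hearts, while its ubiquitous paralog Cox6a1 had the single positive value in KO hearts (-0.17 ± 0.08 in WT hearts). That value belongs to the brighter of its probe sets above 10, and the other changed by -0.23 ± 0.11 in KO and -0.19 ± 0.11 in WT hearts, neither called. For Cox6a2 the calls were reversed on its other probe set, with a mean of 12.48. It fell by 0.34 ± 0.10 in WT hearts (adjusted p = 0.028, limma over all probe sets) and changed by -0.23 ± 0.10 in KO hearts (0.116). With arrays centred on ribosomal protein genes, all 82 members, Cox6a1 included, had a negative sign in both genotypes. With arrays centred on their medians, 79 members in KO and 81 in WT hearts had one, and with quantile normalization repeated, 79 and 80.

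**Figure D3:**
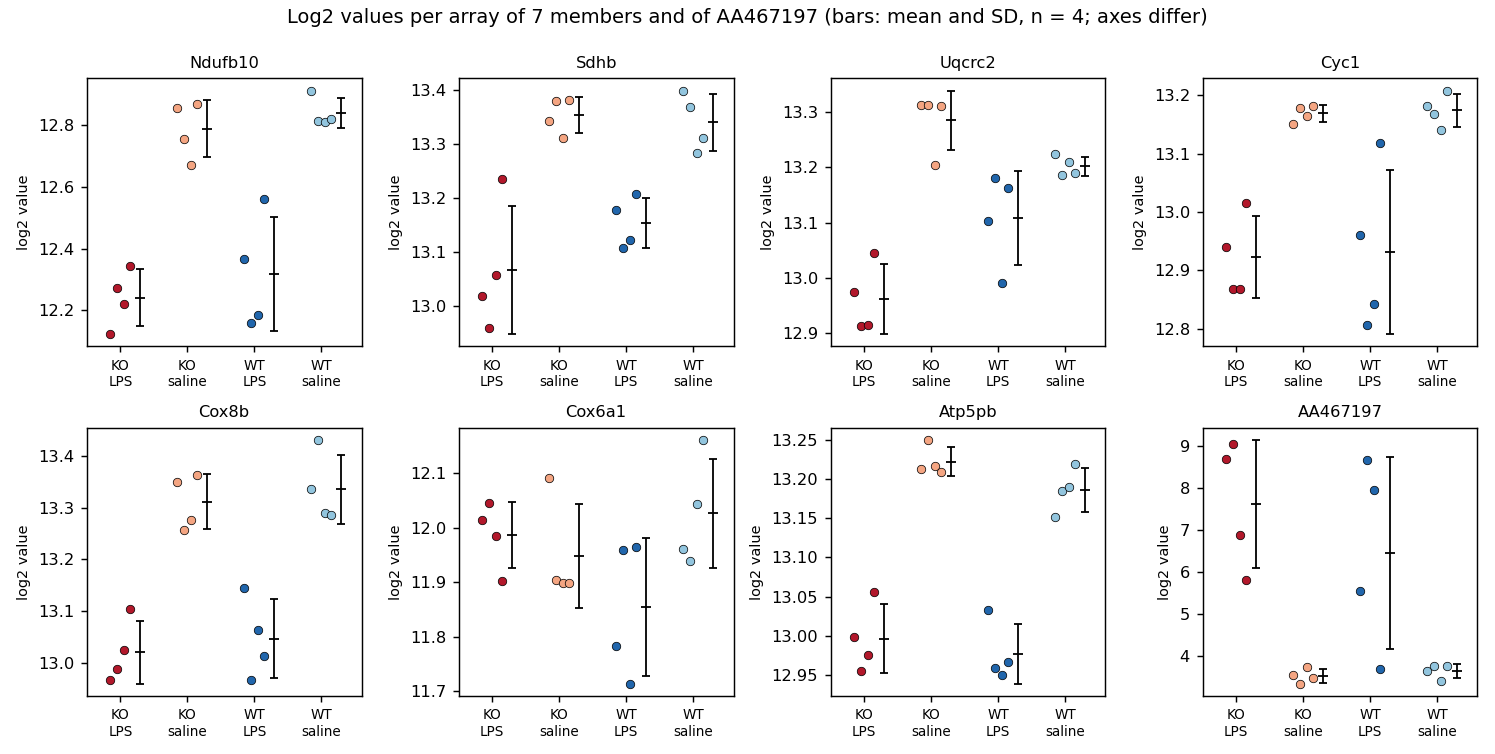
Log2 value on each array (points) of 7 members and of AA467197, by group, with the mean and SD of 4 arrays as bars. Vertical axes differ between panels. Ndufb10, Sdhb, Cyc1, Cox8b and Atp5pb show LPS arrays below saline arrays in both genotypes, Uqcrc2 shows the lowest values on KO LPS arrays, Cox6a1 overlaps, and AA467197 is higher on all LPS arrays but WT LPS array 4 (3.67).

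Whether LPS shifted the balance between paralogs was asked for 6 pairs in each genotype, as the difference of their log2 values on the same array. In exact permutation tests over 4 against 4 arrays, whose smallest possible two-sided p is 0.0286, none of the 12 tests passed after adjustment. A single pair cannot pass adjustment over 12 tests from that p, however large its change. The lack of a passing test therefore does not show that the balance was unchanged. Cox6a2 minus Cox6a1 changed by -0.28 in KO hearts (exact p = 0.0571, adjusted 0.171) and by 0.02 in WT hearts, with the brighter probe set of each gene. These values hold for the probe sets used, since the other Cox6a2 probe set was called lower in WT hearts alone. Cox7a1 minus Cox7a2 changed by -0.15 and -0.13 (exact p = 0.0857 in each). The hypoxia-linked forms Cox4i2 and Ndufa4l2 were not called against saline, and Cox4i2 lay at 4.18 to 4.65 on KO LPS arrays and 4.30 to 4.59 on WT LPS arrays, near the median of all probe sets. AA467197 (Nmes1), an Ndufa4 paralog known from inflamed cells, behaved otherwise. It read 8.70, 9.04, 6.89 and 5.81 on KO LPS arrays, against 3.54, 3.34, 3.74 and 3.47 on KO saline arrays. On WT LPS arrays it read 5.54, 8.66, 7.96 and 3.67, against 3.63, 3.77, 3.41 and 3.75 on WT saline arrays. The KO groups were far apart, whereas WT LPS array 4 stayed within the saline range. AA467197 rose by 4.09 ± 0.83 in KO and by 2.82 ± 0.83 in WT hearts on the log2 scale, sizes that depend on the background because its saline values lie below the median of all probe sets. The WT call was lost without WT LPS array 2 or 3 or WT saline array 3 (adjusted p up to 0.0871), and the WT value ran from 2.09 to 3.75 when 1 array was left out. AA467197 minus Ndufa4 differed from saline by 4.31 in KO and 3.17 in WT hearts, with all LPS arrays above all saline arrays and the smallest exact p in each (adjusted 0.171). On WT LPS array 4 this separation went with a low Ndufa4 value and not with a rise of AA467197. Ndufa4 read 12.43 there, against 12.89, 12.735 and 12.88 on WT LPS arrays 1 to 3.

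Complex V, the ATP synthase, had 11 of 17 genes called lower in KO and 7 in WT hearts, 5 of them in both (median changes -0.23 and -0.20). Atp5pb, subunit b of the peripheral stalk, read 12.999, 12.96, 12.98 and 13.06 on KO LPS arrays, against 13.21, 13.25, 13.22 and 13.21 on KO saline arrays. On WT LPS arrays it read 13.03, 12.96, 12.95 and 12.97, against 13.15, 13.18, 13.19 and 13.22 on WT saline arrays. The arrays lay apart, and Atp5pb fell by 0.23 ± 0.05 (adjusted p = 0.00171) and 0.21 ± 0.05 (0.00365). The alpha and beta subunits of the catalytic head and the gamma subunit of the central stalk, Atp5a1, Atp5b and Atp5c1, were not called and changed by -0.12 ± 0.06, -0.14 ± 0.06 and -0.21 ± 0.09 in KO hearts and by -0.13 ± 0.06, -0.09 ± 0.06 and -0.05 ± 0.09 in WT hearts. Of the other central stalk subunits, Atp5e (epsilon) fell by 0.28 ± 0.08 and 0.33 ± 0.08, and Atp5d (delta) by 0.28 ± 0.10 and 0.35 ± 0.10. The KO call of Atp5d was lost without KO LPS array 1, 3 or 4 or KO saline array 1, 3 or 4 (adjusted p up to 0.102), and the WT call without WT LPS array 3 (0.0543). Atp5o, which joins the peripheral stalk to the head, fell by 0.37 ± 0.10 in KO hearts and changed by -0.20 ± 0.10 in WT hearts. Without KO LPS array 2 its KO change was -0.24. Another Atp5o probe set, with a mean of 11.53, fell by 0.35 in KO and 0.36 in WT hearts (adjusted p = 0.0208 and 0.0229, limma over all probe sets).

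Subunit c, whose ring turns in the membrane, is encoded by 3 genes that give the same mature protein. Atp5g1 fell by 0.39 ± 0.11 in KO hearts and changed by -0.24 ± 0.11 in WT hearts. Without KO LPS array 2 its KO change was -0.26 (adjusted p = 0.0413). Atp5g2 fell by 0.46 ± 0.16 in KO hearts, at 11.30, 10.57, 11.49 and 11.57 on KO LPS arrays against 11.55, 11.77, 11.74 and 11.71 on KO saline arrays, and changed by -0.09 ± 0.16 in WT hearts. The KO call of Atp5g2 was lost without KO LPS array 1 or 2, KO saline array 2, 3 or 4, WT LPS array 1, or WT saline array 1, 2 or 4 (adjusted p up to 0.0973), and the change was -0.24 without KO LPS array 2. Atp5g3 fell by 0.14 ± 0.04 in WT hearts and changed by -0.09 ± 0.04 in KO hearts, and the WT call was lost without WT LPS array 1, 2 or 3 or WT saline array 1, 2 or 4 (adjusted p up to 0.0883).

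A list of 22 core subunits was set apart, which includes Cox4i1, Cox5a, Cox5b and Atp5o and leaves out Atp5e. Of these 22 genes, 14 fell in KO hearts and 7 in WT hearts (median changes -0.31 and -0.19). Of the 58 other subunits, 36 and 33 fell (-0.24 and -0.22). Without WT saline arrays 1 and 4 the core counts were 9 and 1 and the others 31 and 12. In that fit 12.9% of all genes were called lower in KO hearts and 6.11% in WT hearts. The WT core share (4.55%) was below that of all genes, and the WT share of the others (20.7%) above it. Both KO shares (40.9% and 53.4%) were above it. Without KO LPS array 2 and WT LPS array 4 the core counts were 12 and 15 and the others 41 and 45. Of the 18193 genes, 2919 were then lower in KO hearts and 3357 in WT hearts. The difference between the core counts and the others was not tested. By complex, without KO LPS array 2 and WT LPS array 4 together, complexes I to V had 24, 2, 8, 9 and 10 genes called lower in KO hearts, and 26, 2, 7, 12 and 13 in WT hearts. Without WT saline arrays 1 and 4 the WT counts were 8, 0, 0, 3 and 2. These were 24.2%, 0%, 0%, 17.6% and 11.8% of each complex, against the 6.11% of all genes. Across the 82 genes the KO and WT changes had a Pearson correlation of 0.62 (Spearman 0.56), a description over genes that share the arrays of each group.

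Most members lie near the top of the intensity range, and their change differed by level. The 29 members with a mean above 13 had a median change (mean of both genotypes) of -0.18, and the 42 members from 11 to 13 one of -0.30. Over the 71 members above 11, mean level and mean change had a Pearson correlation of 0.57 (Spearman 0.55), given as a description. Among the 389 other genes with a mean above 11, 130 fell and 78 rose in KO hearts (33.4% lower) and 109 fell and 62 rose in WT hearts (28.0% lower). Of the 71 members above that level, 47 fell in KO hearts and 39 in WT hearts (66.2% and 54.9%), and 0 rose in either. Without WT saline arrays 1 and 4, 12 of these members and 59 of the other bright genes fell in WT hearts (16.9% and 15.2%), and without KO LPS array 2 and WT LPS array 4, 58 and 158 did (81.7% and 40.6%). Over all 16 arrays the members' median changes were -0.27 and -0.23, against -0.14 and -0.11 for the other bright genes.

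All probe sets of the same genes were also tested singly. The counts include the probe sets already used above, so they are not a separate check. The member calls above, unless said otherwise, are those of each gene's brightest probe set, and other probe sets of a gene did not always share them. The 82 members have 165 probe sets, and of the 123 with a mean above 10, 122 had a negative change in KO and 123 in WT hearts (83 and 60 called lower, 0 called higher, counts made with all 16 arrays). Among the 42 dimmer ones, a probe set of Ndufa12, an accessory subunit, had a called rise in KO hearts (0.94 ± 0.24, at a mean of 4.998), whereas the brighter probe set of that gene fell by 0.27 ± 0.08. With the probe sets of a gene averaged, Ndufa12 lost that call and changed by 0.07 in KO hearts. Of the 2 genes counted apart, Cox7a2l fell by 0.46 ± 0.13 in WT hearts (-0.29 ± 0.13 in KO hearts), a call lost without WT LPS array 1, 2 or 3 or WT saline array 3 (adjusted p up to 0.0673). Ndufab1, the acyl carrier protein that is also a complex I subunit but lies outside the symbols used, fell by 0.45 ± 0.11 in KO hearts and changed by -0.22 ± 0.11 in WT hearts.

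Many of the factors that build the complexes fell as well. Of 81 partner genes measured, 45 fell and 4 rose in KO hearts, and 28 fell and 4 rose in WT hearts, where 14.7% and 11.4% of all genes were called lower and higher in KO hearts and 11.6% and 9.28% in WT hearts. Without WT saline arrays 1 and 4, 40 fell and 3 rose in KO hearts and 12 fell and 0 rose in WT hearts. In that fit 12.9% and 10.1% of all genes were called lower and higher in KO hearts. The WT shares were 6.11% and 5.22%. Lower in WT hearts there were 1 of 15 complex I factors, 0 of 6 complex III factors and 2 of 16 complex IV factors. Of 15 regulators, 3 were lower. The complex I share, 6.67%, was close to that of all genes. Without KO LPS array 2 and WT LPS array 4, 47 fell and 4 rose in KO hearts. In WT hearts 40 fell and 6 rose. Of the 18193 genes, 2919 were then lower and 2454 higher in KO hearts, and 3357 (18.5%) and 2366 in WT hearts. Among 15 complex I assembly factors, 8 fell in KO hearts and 3 in WT hearts. Ecsit fell by 0.53 ± 0.12 and 0.48 ± 0.12, and Timmdc1, which builds the membrane arm, fell by 1.10 ± 0.22 in KO hearts and changed by -0.37 ± 0.22 in WT hearts. Sdhaf4, which protects and assembles the succinate dehydrogenase flavoprotein, fell most among the assembly factors. It read 8.498, 7.81, 8.71 and 8.93 on KO LPS arrays, against 9.89, 10.04, 9.95 and 10.07 on KO saline arrays, and 8.997, 8.84, 8.62 and 9.08 on WT LPS arrays, against 10.19, 10.11, 9.70 and 9.96 on WT saline arrays. All LPS arrays were lower, and Sdhaf4 fell by 1.497 ± 0.19 in KO (adjusted p = 1.75e-05) and 1.10 ± 0.19 in WT hearts (0.000386). For complex III, 4 of 6 factors fell in KO and 3 in WT hearts, Uqcc1 by 0.74 ± 0.18 and 0.76 ± 0.18. For complex IV, 8 of 16 fell in each genotype, among them the haem A synthesis enzyme Cox10 (0.60 ± 0.16 and 0.66 ± 0.16) and the copper chaperone Cox11 (0.51 ± 0.12 and 0.68 ± 0.12). Cox18, an insertase named after its value was seen, rose by 0.45 ± 0.15 in WT hearts, a call that passed in 8 of the 16 fits that left out 1 array (lost without WT LPS array 2 or 3, WT saline array 2, 3 or 4, KO LPS array 3, or KO saline array 3 or 4). Of 4 complex V factors, 2 fell in KO hearts and 0 in WT hearts (0 at unadjusted p under 0.05), and Atpaf1 fell by 0.84 ± 0.21 in KO hearts.

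Among the mobile carriers and coenzyme Q enzymes, 7 of 12 fell in KO and 4 in WT hearts. Coq10a, a coenzyme Q binding protein, fell by 0.91 ± 0.15 and 0.69 ± 0.15, the methyltransferase Coq5 by 0.84 ± 0.11 and 0.60 ± 0.11, and the hydroxylase Coq7 by 0.66 ± 0.09 and 0.71 ± 0.09. Cycs, cytochrome c itself, was not called (-0.15 ± 0.06 and -0.06 ± 0.06). Of 7 transport genes, 4 fell in KO and 3 in WT hearts, including the outer membrane channel Vdac3 (0.57 ± 0.09 and 0.45 ± 0.09). Slc25a4, the heart's main ADP/ATP carrier, was not called (-0.13 ± 0.06 and -0.12 ± 0.06). Ucp3, a mitochondrial carrier of the uncoupling protein family, rose. It read 8.29, 8.18, 8.08 and 8.34 on KO LPS arrays, against 5.86, 6.23, 5.995 and 6.90 on KO saline arrays, and 8.27, 8.06, 8.14 and 5.08 on WT LPS arrays, against 5.63, 5.71, 6.06 and 5.53 on WT saline arrays. The KO groups were apart, and WT LPS array 4 lay below all WT saline arrays. The rise was 1.97 ± 0.50 in KO and 1.66 ± 0.50 in WT hearts, and the WT call was lost without WT LPS array 1, 2 or 3 or WT saline array 1, 2 or 4 (adjusted p up to 0.0837). Without WT LPS array 4 the WT rise was 2.42.

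Of 15 regulators, 9 fell and 2 rose in KO hearts, and 6 fell and 1 rose in WT hearts. Ppargc1a, the PGC-1alpha coactivator, read 8.32, 8.66, 8.08 and 8.98 on KO LPS arrays, against 9.98, 9.69, 9.88 and 9.88 on KO saline arrays, and fell by 1.35 ± 0.34. In WT hearts it read 8.65, 8.37, 8.35 and 6.48 with LPS, against 10.46, 10.22, 10.10 and 9.99 with saline, and fell by 2.23 ± 0.34 (-1.74 without WT LPS array 4). Its relative Ppargc1b fell by 1.33 ± 0.21 and 1.51 ± 0.21, with LPS arrays below saline arrays throughout. The estrogen-related receptor Esrrg fell by 1.65 ± 0.33 in KO and 1.21 ± 0.33 in WT hearts, where the adjusted p was 0.0571 without WT LPS array 3. Esrra fell by 0.76 ± 0.19 and 0.70 ± 0.19. Tfam, which packages mitochondrial DNA, fell by 0.59 ± 0.13 and 0.56 ± 0.13, and Polrmt, the mitochondrial RNA polymerase, by 0.72 ± 0.14 and 0.74 ± 0.14. Gabpa fell by 0.48 ± 0.16 in KO hearts and changed by -0.41 ± 0.16 in WT hearts. The KO call of Gabpa was lost without KO LPS array 2 (-0.29) or KO saline array 2, 3 or 4 (adjusted p up to 0.111). Yy1 rose by 0.30 ± 0.10 in KO hearts, a call that passed in 6 of the 16 fits that left out 1 array, and changed by 0.06 ± 0.10 in WT hearts. Nrf1 was not called (0.26 ± 0.17 and 0.12 ± 0.17). Pprc1, the third PGC-1 family coactivator, rose by 1.03 ± 0.17 and 0.61 ± 0.17. In WT hearts that call was lost without WT LPS array 2 or WT saline array 2 (adjusted p up to 0.0591).

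**Figure D4:**
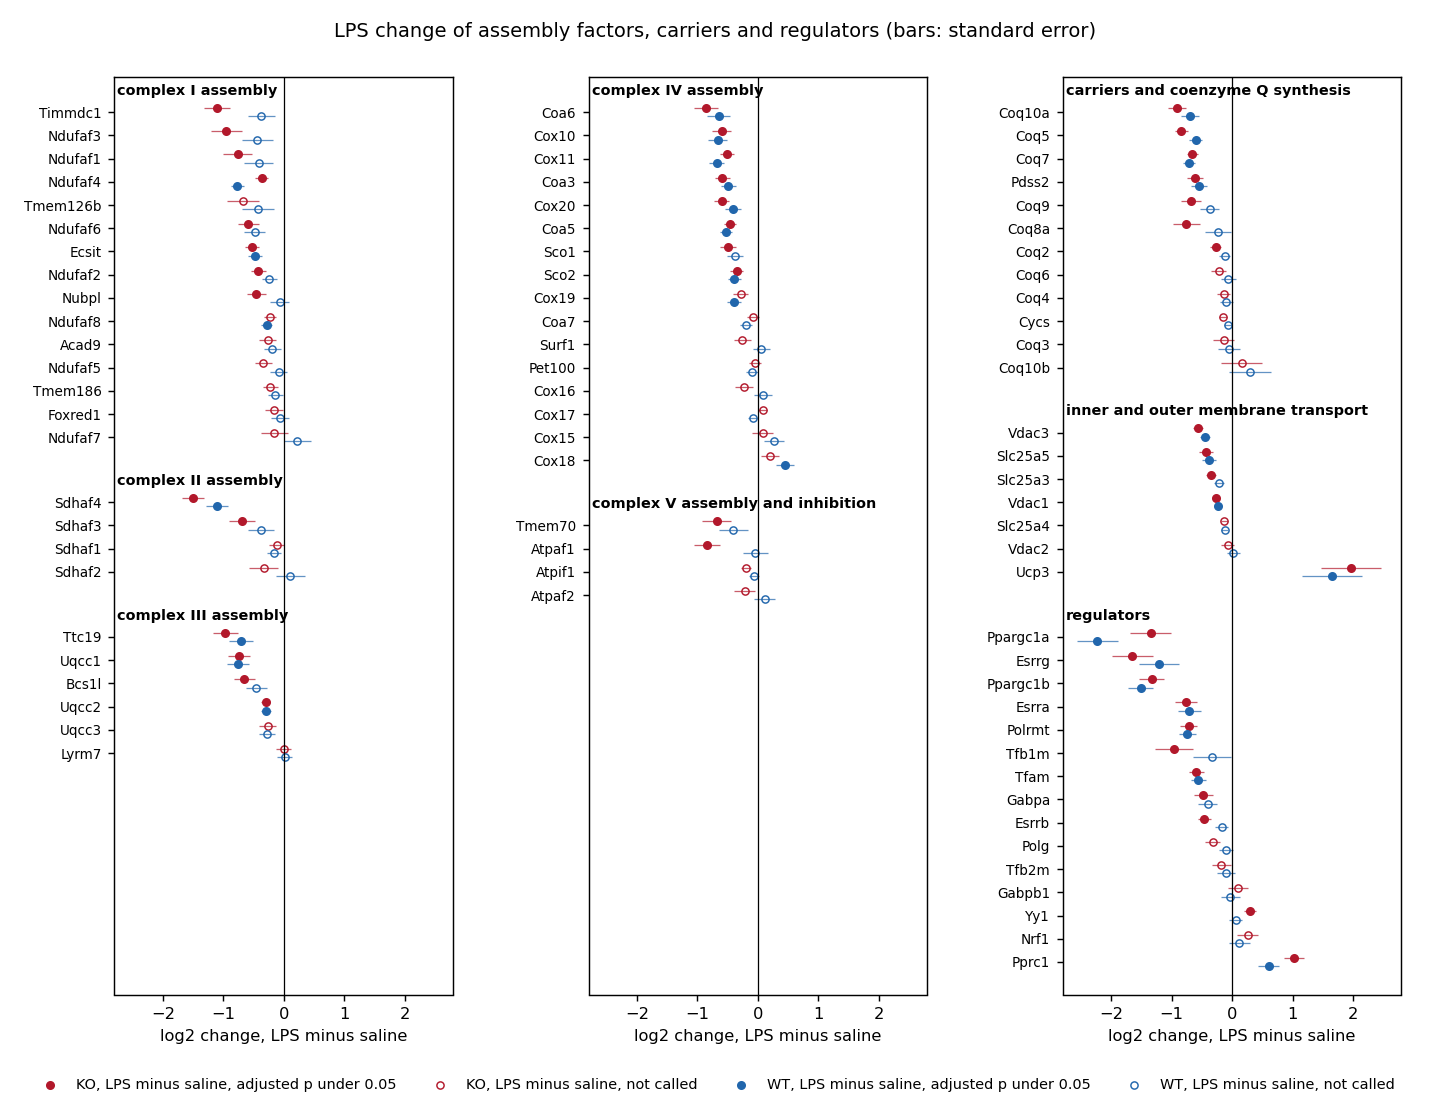
Log2 change after LPS (LPS minus saline, horizontal axis) of the assembly factors, carriers and regulators measured, in KO hearts (red) and WT hearts (blue), with limma standard errors as bars and filled points for adjusted p under 0.05. Most points lie left of 0, Ppargc1a reaches -2.23 in WT hearts, and Ucp3 and Pprc1 lie to the right.

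The comparison of genotypes asks whether loss of the receptor altered the pathway, at rest or after LPS. In KO LPS against WT LPS hearts, limma called 0 of the 82 members after adjustment (0.0055% of all genes were called), and 4 had an unadjusted p under 0.05, where 7.56% of all genes did. The KO LPS arrays and WT LPS arrays overlapped for all 82 members, where 1.18% of all genes lay apart and lower and 1.08% apart and higher. In KO saline against WT saline hearts, limma called 0 members (0.0055% of all genes), and 0 had an unadjusted p under 0.05, against 3.48% of all genes. The saline groups lay apart for 1 member lower and 1 higher in KO hearts, against 2.08% and 1.81% of all genes. The differences ranged from -0.39 to 0.18 after LPS and from -0.15 to 0.09 after saline, with a median half-width of the 95% interval of 0.17. For the LPS change in KO minus that in WT hearts, limma called 0 members and 0% of all genes, and 1 member had an unadjusted p under 0.05, against 4.47% of all genes.

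That member was Uqcrc2, the core protein 2 of complex III. It read 12.97, 12.91, 12.91 and 13.04 on KO LPS arrays and 13.31, 13.31, 13.21 and 13.31 on KO saline arrays, against 13.10, 13.18, 12.99 and 13.16 on WT LPS arrays and 13.22, 13.19, 13.21 and 13.19 on WT saline arrays. Its LPS change was lower in KO than in WT hearts by a difference of -0.23 (95% interval -0.40 to -0.07, unadjusted p = 0.00889 by limma), which did not pass after adjustment (adjusted p = 0.959). In KO LPS against WT LPS hearts Uqcrc2 differed by -0.15 ± 0.06 (limma adjusted p = 0.655), Ndufa10 by -0.17 ± 0.07 and Ndufs4 by -0.39 ± 0.17, and these differences did not pass either. For Ndufs4, an accessory subunit, the KO LPS arrays read 10.54, 9.79, 10.59 and 10.85, against 10.85, 10.69, 10.81 and 10.98 on WT LPS arrays, so array 2 lay far below the others. In KO saline against WT saline hearts the 3 members of smallest p were Uqcrc2 (0.08 ± 0.06), Ndufb3 (-0.11 ± 0.08) and Ndufb4 (-0.13 ± 0.11), each with an adjusted p of 1.0. No partner gene was called in a genotype comparison by limma after adjustment, where 11 of 81 had an unadjusted p under 0.05 after LPS, 1 after saline and 3 for the difference of LPS changes.

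**Figure D5:**
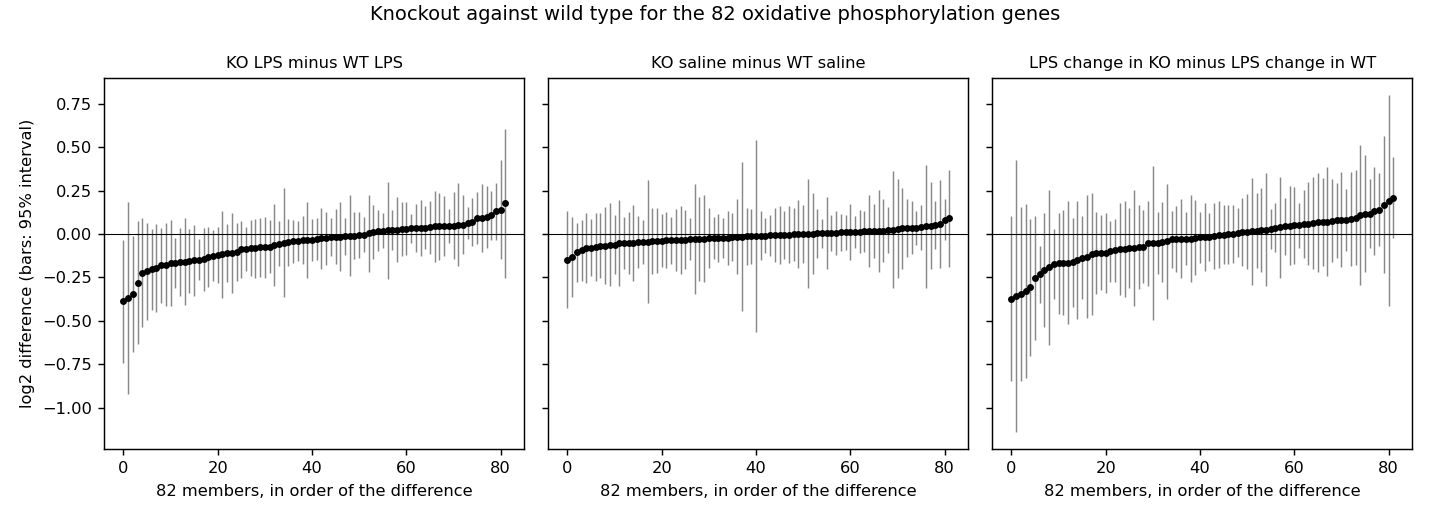
Log2 difference (points) with its 95% interval (lines) for each of the 82 genes, in rising order, for KO LPS minus WT LPS, KO saline minus WT saline, and the LPS change in KO minus that in WT hearts. Most intervals include 0.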

How the data were processed

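The 16 deposited columns hold log2 expression values per probe set of an Affymetrix array hybridised with biotinylated cRNA from total RNA. Per the submitters' processing notes the authors made these log2 values with RMA, while no source used here gives its version or how probe sets were defined. RMA equalises the arrays' distributions, so a shift shared by all genes cannot be seen. Of 45101 probe sets, 64 are controls, 34945 carry 1 gene symbol, 932 several and 9160 none in the platform annotation. Each of 18193 genes was represented by its probe set of highest mean. The number of arrays limits the precision, and array medians ran from 4.61 to 4.67.

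The log2 values were fitted with limma 3.58.1 in R 4.3.3 (1 mean per group over all 16 arrays, eBayes with an intensity trend, two-sided), with p-values adjusted by Benjamini-Hochberg over all genes. Paralog pairs were tested with exact permutation tests in SciPy 1.17.1. The fit was tested on simulated data, in which 200 genes drawn from all 18193 were changed. Of genes changed by 0.5 log2 units in the comparison of KO LPS with KO saline, 50% were called, and of those changed by 0.25, 16%. In the data 2669 genes were called lower and 2075 higher in that comparison. The median SE was 0.08 for the members and 0.12 for all genes. The simulated shares therefore do not give the share of changed members that would be called. All members were counted. Named by rule were the core subunits of each complex, paralog pairs, the largest falls of each complex, called rises or, for genotype, the smallest p-values, and partner genes of fixed lists. Atp5pb, Cox6b2, Cox7b2, Cox8c, Ndufa3, Ndufa6, Ndufa12, Ndufb1, Ndufb2, Ndufc2, Ndufv3, Uqcr10 and Uqcrb were named after their values were seen. The members and lists were chosen with earlier results of these data known. The labels number the replicates of each group but state nothing further on their independence, so p-values measure the spread between these samples. No 2 arrays shared over 0.363% of values. Same-numbered arrays did not deviate together (median correlation -0.03), so the numbers were not taken as pairs. Promoter sequences are RefSeq's (GRCm38.p6).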

Additional observations from a re-analysis of the deposited data

Results flagged for a closer look

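In groups of 4 arrays, 12 of 208 groups examined held 1 array far from the others by Dixon's 95% criterion, and chance flags about 1 in 20. The complex I mean was 11.99 on KO LPS array 4, against 11.78 to 11.82 on the others of its group. The complex II mean was 11.94 on KO saline array 1 (others 12.26 to 12.32), and the complex IV mean 10.67 on WT saline array 3 (others 10.73 to 10.74). On KO saline array 1, Cox6a1 was high at 12.09 (others 11.90 to 11.91) and Ndufs1 low at 11.79 (others 12.20 to 12.26). On WT saline array 1, Cox7c was low at 5.71 (others 5.88 to 5.91) and Ndufb10 high at 12.91 (others 12.81 to 12.82). On WT saline array 3, Atp5g1 was low at 13.41 (others 13.62 to 13.63) and Ndufs4 low at 10.79 (others 11.06 to 11.10). Atp5d was high at 13.30 on WT saline array 2 (others 13.26), Ndufs5 high at 12.22 on KO saline array 4 (others 12.09 to 12.10), and Uqcrc2 low at 13.21 on KO saline array 3 (others 13.31).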

How the results depend on the processing

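Across the 13 alternatives and the fits without a single array, 7 members changed sign in some setting, 18 times in all. In 1 of these a call was lost as the sign reversed. Ndufa12, called lower in KO hearts at -0.27, changed by 0.0736 with probe sets averaged and was not called (adjusted p = 0.532, limma). There a dim probe set of the gene with the opposite change enters the mean. The count of members lower after LPS ranged from 34 to 58 in KO hearts and from 27 to 54 in WT hearts when 1 array was left out, and the counts of members higher after LPS, and of members called in the genotype comparisons, stayed at 0 to 0. The WT count was 62 with arrays centred on ribosomal protein genes, 62 without WT LPS array 4 and KO LPS array 2 together (chosen after seeing the data), and 13 without WT saline arrays 1 and 4; the cause was not tested. The ribosomal centring moved the median of all genes to -0.13 in KO and -0.09 in WT hearts, with 4426 genes lower and 1495 higher in KO hearts (2669 and 2075 otherwise) and 2981 and 1244 in WT hearts (2109 and 1689). With every probe set tested by itself, 1 gene was called higher in KO hearts, the dim Ndufa12 probe set. With the replicate block the counts were 47 in KO and 37 in WT hearts. For single members, partners and pairs, 5843 values kept their side of the threshold, 407 lost the call and 237 gained it. The probe sets used for Ndufb4, Cox4i2 and Cox7b2 lie near background, which limits what their values can show.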

Other observations

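Some subunits were measured only on probe sets that carry several gene symbols and were not counted above. The probe set of Ndufa11b and Ndufa11 fell by 0.51 in each genotype (adjusted p = 0.000569 in KO and 0.000712 in WT hearts, limma). Of 2 bright probe sets naming Ndufb4b, Ndufb4c and Ndufb4, one fell by 0.42 in KO and 0.39 in WT hearts, and the other fell by 0.53 in KO hearts and changed by -0.38 in WT hearts (adjusted p = 0.0529, limma). That of Ndufs6b and Ndufs6 fell by 0.34 and 0.52. A probe set shared by Ndufs5 and its pseudogene Ndufs5-ps fell by 0.46 and 0.48, beside 0.53 and 0.45 for the Ndufs5 probe set used above.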
